A study of Mus musculus with 2 samples.

Results

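The genes of 6 cell-surface proteins were followed in mouse embryonic stem (ES) cells that lack Id1, namely the connexin genes Gjb5 and Gja1, the adhesion molecule genes Jam2 and Pecam1, the integrin gene Itgb7 and the receptor kinase gene Kit. They were measured by 15 probe sets, which are all the probe sets that the platform annotation assigns to these 6 symbols and to no other gene, out of 12393 genes on the array. The genes were chosen with earlier results of the same comparison known, so their differences between genotypes are given as a description, without a test. The study compared 1 array of Id1-/- ES cells (labelled Id1 KO) with 1 array of wild-type ES cells (labelled WT). Both cultures grew on gelatin, without any other treatment named, in medium holding serum and the cytokine LIF, which maintains self-renewal of mouse ES cells. The labels name no strain, clone, passage or sex, and they do not say which part of Id1 was removed, so clone and culture cannot be told apart from genotype. Id1 encodes a helix-loop-helix protein that binds E proteins and keeps them from DNA.

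Connexins assemble into channels that join the cytoplasm of neighbouring cells at gap junctions. Gja1 encodes the connexin most closely studied in ES cells and in the inner cell mass, and Gjb5 encodes a connexin best known from trophoblast and skin. Jam2 and Pecam1 encode immunoglobulin-type adhesion molecules that are used as surface markers of naive mouse ES cells and that are also made by endothelium. Itgb7 encodes an integrin beta subunit known from lymphocytes and mast cells, where it pairs with the Itga4 or the Itgae product. Kit encodes the receptor tyrosine kinase for stem cell factor, which acts in germ cells, blood progenitors and melanocytes and is also present on ES cells.

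The sequences around the start sites of 4 of the 6 genes, all but Jam2 and Pecam1, are given from RefSeq on build GRCm38.p6 and cover 250 bases before to 50 bases after the start. They are shown because E proteins, the binding partners of Id1, recognise the E-box CANNTG, and because ESRRB, an orphan nuclear receptor of naive ES cells, recognises AAGGTCA. Capitals mark matches to either motif, searched on both strands. No binding was measured, so a match describes letters and no more.
Gjb5, chr4:127358115-127358414, minus strand: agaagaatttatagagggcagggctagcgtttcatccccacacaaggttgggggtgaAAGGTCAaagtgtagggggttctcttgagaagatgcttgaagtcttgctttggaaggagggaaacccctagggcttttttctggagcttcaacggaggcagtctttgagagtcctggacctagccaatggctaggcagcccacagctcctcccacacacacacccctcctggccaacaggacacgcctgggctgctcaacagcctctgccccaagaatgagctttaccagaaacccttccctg
Itgb7, chr15:102231886-102232185, minus strand: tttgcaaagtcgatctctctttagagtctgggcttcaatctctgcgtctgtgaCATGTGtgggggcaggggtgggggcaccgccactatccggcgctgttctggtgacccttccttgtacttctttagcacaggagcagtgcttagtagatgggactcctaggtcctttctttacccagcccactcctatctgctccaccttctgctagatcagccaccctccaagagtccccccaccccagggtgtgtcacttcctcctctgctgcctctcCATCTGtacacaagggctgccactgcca
Kit, chr5:75574737-75575036, plus strand: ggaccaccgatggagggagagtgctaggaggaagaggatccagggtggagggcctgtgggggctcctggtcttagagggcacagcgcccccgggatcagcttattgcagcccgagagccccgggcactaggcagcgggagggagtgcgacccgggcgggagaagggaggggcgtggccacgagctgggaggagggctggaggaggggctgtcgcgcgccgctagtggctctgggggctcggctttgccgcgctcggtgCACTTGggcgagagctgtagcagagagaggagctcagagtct
Gja1, chr10:56377050-56377349, plus strand: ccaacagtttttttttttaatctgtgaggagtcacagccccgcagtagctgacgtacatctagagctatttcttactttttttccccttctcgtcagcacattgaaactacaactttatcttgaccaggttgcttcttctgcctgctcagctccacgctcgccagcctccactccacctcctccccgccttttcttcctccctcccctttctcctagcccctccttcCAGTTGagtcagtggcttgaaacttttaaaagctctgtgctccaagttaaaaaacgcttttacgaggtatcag

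Counting the first transcribed base as 1 and the base before it as -1, the Gjb5 window held no CANNTG and had AAGGTCA starting at -193. The Itgb7 window held CANNTG at -197 and at 23, the Kit window at 9 and the Gja1 window at -23. None of these 4 E-boxes read CAGCTG or CACCTG, in either orientation. Among 32817 promoter windows of the same length, 72.3% held CANNTG, 16.3% CAGCTG, 20.2% CACCTG and 4.72% AAGGTCA. The 4 windows thus held 0 to 2 E-boxes, beside a median of 1 match per window over all promoters. Kit has a second listed start site, whose window begins at 75574741 and holds the same E-box. The GC content was 69% for Kit, 56.3% for Itgb7, 54.3% for Gjb5 and 47.7% for Gja1, against a median of 52.7% over all windows.

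Values are linear intensities as deposited, on a scale of arbitrary units that allows a probe set to be compared between the arrays but not with another probe set. Differences are log2 intensity in the knockout minus log2 intensity in the wild type, after subtraction of each array's median (155.0 for the knockout, 152.5 for the wild type). Intensities under a floor, the 25th percentile of both arrays, were raised to it, which is 48.4 for the knockout and 47.6 for the wild type, and a fold against a floored value is a lower bound. A gene passed the brightness filter when the brighter of its values reached the array's median, which was so for 7369 genes and for all 6 members. With 1 array per genotype there is no replicate error and no p-value, and only the spread between probe sets of the same gene is at hand. It describes how far probe sets disagree on the same 2 arrays, and it holds no error between arrays or cultures. Over 2567 genes with several passing probe sets, the SD of the log2 difference between them had a median of 0.22 and a 90th percentile of 0.57. The Id1 probe set read 461 on the knockout array against 1045, 2.30-fold lower. As the deleted part is not given, this is an incomplete check of the labels. The 3' to 5' signal ratio of actin was 1.10 and 1.07, and that of Gapdh 0.761 and 0.749, in the knockout and the wild type. As the cells were measured in bulk, fewer cells with a transcript and less of it per cell cannot be told apart.

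Of the 6 genes, Gjb5, Itgb7, Jam2 and Kit were at least 2-fold lower in the knockout, while Pecam1 and Gja1 differed by less than 2-fold. Over all genes past the filter, 3.92% were at least 2-fold lower and 3.92% at least 2-fold higher. Since the members were picked on this contrast, nothing is read from their count against that share. At the level of probe sets, 8 of the 15 were at least 2-fold lower, 2 were at least 2-fold higher (both of Gja1) and 5 were neither, beside 3.88% lower and 4.2% higher over 11205 passing probe sets. The median log2 difference of the 6 genes was -1.80 and that of all genes past the filter -0.01. The members are spread over chromosomes 4, 5, 10, 11, 15 and 16, and none lies on the X chromosome or on chromosome 2, where Id1 lies.

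**Figure D1:**
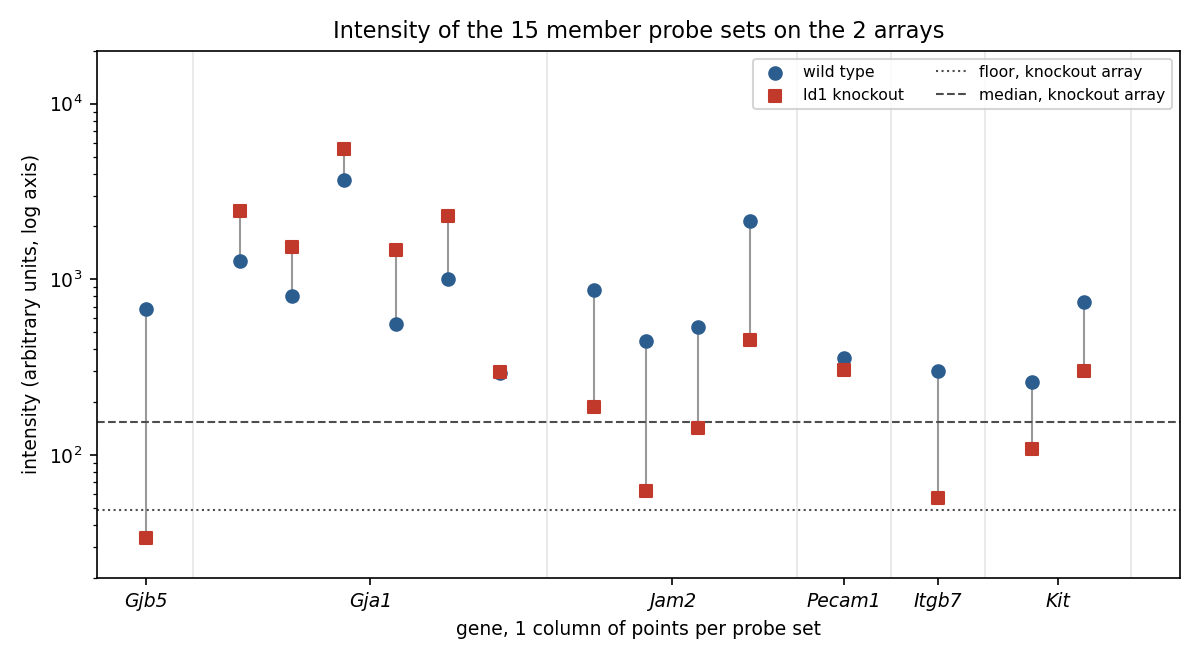
Intensity (log axis, arbitrary units) of each of the 15 probe sets on the knockout array (squares) and the wild-type array (circles), joined by a line, with the floor of 48.4 (dotted) and the median of 155.0 (dashed) of the knockout array. All 4 Jam2 probe sets and both Kit probe sets were lower in the knockout, and 5 of the 6 Gja1 probe sets were clearly higher, while the sixth read 296 against 293.

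The connexin genes went opposite ways. The single Gjb5 probe set (1449204_at) read 33.7 for the knockout against 676 for the wild type. The knockout signal lies under the floor of 48.4, whereas the wild-type signal is well over the array's median. This makes Gjb5 at least 14.2-fold lower in the knockout (log2 difference -3.83 or below), and the bound is 6.76-fold with the floor at the 40th percentile. No other probe set reads Gjb5 alone, so its value rests on 1 probe set per array.

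Gja1, which encodes the connexin with the widest tissue distribution, was read by 6 probe sets that ranged from 293 to 3653 in the wild type and from 296 to 5498 in the knockout. The brightest, 1437992_x_at, read 5498 against 3653 in the wild type, 1.48-fold higher. The probe sets 1415800_at (2434 against 1276) and 1415801_at (1525 against 805), which come from the same source transcript, had log2 differences of 0.91 and 0.90. Thus both lie close together and just short of 2-fold. The probe sets 1438650_x_at (1475 against 557) and 1438945_x_at (2294 against 1002) were 2.61-fold and 2.25-fold higher. The dimmest, 1438973_x_at, read 296 against 293, a log2 difference of -0.01 whose sign comes from the centring. Over all 6 the median was 0.90 and the SD 0.49, more than the median SD of 0.22 and less than the 90th percentile of 0.57 over genes with several probe sets. The suffix _x_at marks probe sets with probes that can bind other transcripts, and 4 of the 6 carry it. Gja1 was therefore higher in the knockout by 5 of 6 probe sets after centring, and by all 6 as deposited, by an amount that its probe sets do not fix.

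The rest of the connexin family was mostly dim. Of 20 connexin genes, 13 had a probe set, and 3 of these passed the filter, namely Gja1, Gjb5 and Gjc1. Gjc1, a connexin of the early embryo and the vasculature, read 575 against 668 (log2 difference -0.24). This is close in size to the median spread between probe sets of a gene, which holds no error between arrays or cultures. Of the 10 connexins that did not pass, 5 were at the floor on both arrays (Gja3, Gja5, Gja10, Gjb1 and Gjd4), and Gjb2 read 108 against 119. Among gene products that bind or resemble connexins, 4 of 5 measured genes passed the filter and all 4 were above 0, with a median of 0.36. The actin-binding drebrin gene Dbn1 was 2.05-fold higher (394 against 189) by its brighter probe set, and its other probe set had a log2 difference of 0.62. The scaffold gene Tjp1, whose product binds the tail of the Gja1 protein, read 1574 against 1006, a log2 difference of 0.62. The channel gene Panx1 and the caveolin gene Cav1 had log2 differences of 0.10 and 0.06.

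Jam2 was lower by each of its 4 probe sets. The junctional adhesion molecule it encodes binds the Jam3 product on the opposite cell. The brightest probe set, 1449408_at, read 452 against 2149 in the wild type, 4.83-fold lower. Probe set 1419288_at read 187 against 865 and probe set 1431417_at 142 against 537, log2 differences of -2.24 and -1.94. The fourth, 1431416_a_at, read 62.8 against 446, the widest gap of the 4 at 7.21-fold. After centring, each Jam2 probe set was thus at least 3.84-fold lower in the knockout, and no reading was at the floor. The SD between the 4 log2 differences was 0.38. Among the 7320 genes that passed the filter and were above the floor on both arrays, Jam2 ranked 9 from the lowest by its brightest probe set.

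Other genes of the family to which Jam2 belongs differed less and in both directions. Of 8 measured genes of the JAM and CTX family, 7 passed the filter, 3 of them at least 2-fold lower and none at least 2-fold higher, with a median of -0.61, or -0.19 over the 6 without Jam2. Gpa33, an intestinal epithelial antigen, was 2.43-fold lower (118 against 283) and its second probe set gave -1.501. Clmp, a CXADR-like adhesion molecule, read 106 against 209, at the limit of 2-fold (2.005-fold), and fell short of it under each of 3 other scalings (log2 differences of -0.98, -0.999 and -0.99). The binding partner gene Jam3 read 299 against 251 (0.23), with -0.48 for a dim second probe set. F11r, which encodes the epithelial JAM, read 884 against 587 (0.57). The endothelial gene Esam had a log2 difference of -0.61. Cxadr, the coxsackievirus receptor gene, gave 0.27 by its brightest probe set and 1.93 by its other passing one. Of 9 measured genes for polarity and PDZ proteins at these junctions, 7 passed and none differed by 2-fold at its brightest probe set (median 0.22), although a second probe set of Pard6b read 217 against 86.7 (1.30). Among them Pard3, which binds JAM tails, had a log2 difference of 0.04 and Prkci, an atypical protein kinase C gene, -0.37.

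Pecam1, whose product binds itself across cell contacts, differed by far less than 2-fold. Its probe set (1421287_a_at) read 306 against 355 in the wild type, 1.18-fold lower, a log2 difference of -0.24. That is close in size to the median SD between probe sets of a gene, which holds no error between arrays or cultures. Among 18 genes of immunoglobulin-type adhesion molecules, 11 passed the filter, 1 was at least 2-fold higher, none was at least 2-fold lower, and the median was 0.12, each gene taken at its brightest probe set. Other passing probe sets went past 2-fold for Ceacam1 (132 against 322, -1.31) and for Cadm1 (354 against 134, 1.38). Mcam, an adhesion molecule gene of endothelium, read 263 against 499 (-0.95) and Icam1, a leukocyte ligand gene, 524 against 766 (-0.57). Cd47, which encodes an inhibitory ligand for phagocytes, was 2.16-fold higher (245 against 112) by the probe set that passed the filter, and another probe set read 73.5 against 76.8. Kinases and phosphatases that act on or bind the tails of the Pecam1 and Kit products were measured as another list. Of 7 measured, all passed, and the kinase gene Yes1 was 2.25-fold lower (371 against 822, with -0.88 for its other probe set) while the other 6 were neither. Ptpn11, the phosphatase gene whose product is the main partner of the Pecam1 protein, had a log2 difference of 0.44 and Ptpn6 -0.01.

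**Figure D2:**
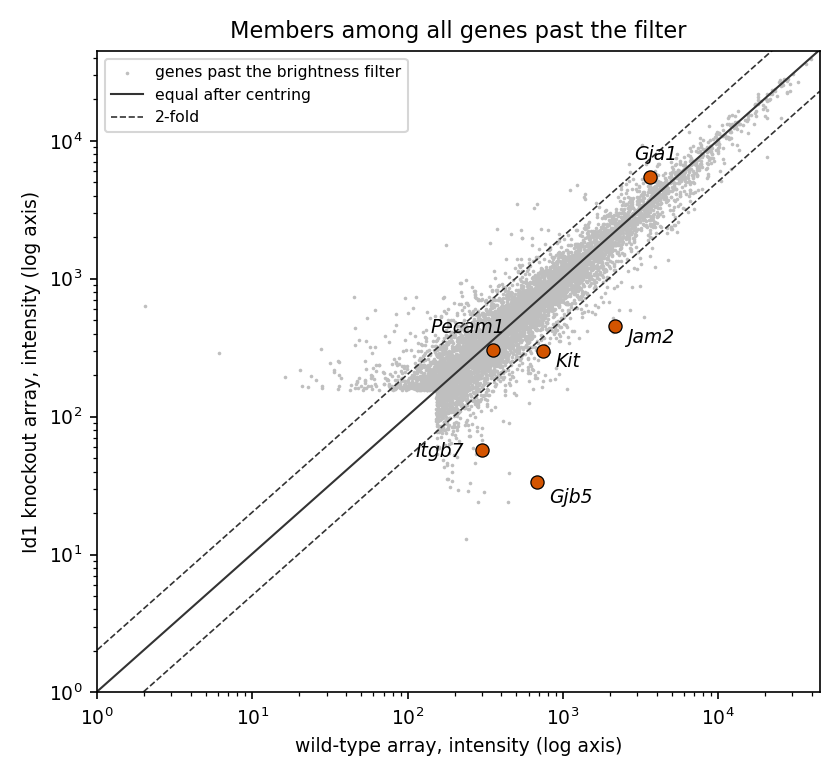
Intensity on the wild-type array (x) and the knockout array (y), both on log axes, for the brightest probe set of each of 7369 genes past the filter, with the 6 members in orange, the line of equal centred values and the lines of 2-fold difference. Gjb5, Itgb7, Jam2 and Kit lie under the lower 2-fold line, and Pecam1 and Gja1 lie between the lines.

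Itgb7 was 5.41-fold lower in the knockout by its single probe set (1418741_at), which read 56.9 against 303 in the wild type. The knockout reading lies just above the floor of 48.4, so the size of this fold is uncertain, and with the floor at the 40th percentile it was 3.03-fold. The other integrin beta genes past the filter were not lower. Itgb1, the common beta subunit gene of matrix-binding integrins, read 1530 against 933 (0.69, and 1.29 by its other passing probe set) and Itgb5, a vitronectin receptor subunit gene, 635 against 572 (0.13, with all 4 probe sets above 0). Itgb2, Itgb3, Itgb4 and Itgb6 stayed below the filter.

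The alpha partners of Itgb7 were dim on both arrays. Itga4 read 11.8 against 55.7 by its brightest probe set, and Itgae 46.6 and 62.9, neither of which passed the filter. The ligand genes Madcam1 (117 and 142) and Vcam1 (114 and 78.3) were also below it. E-cadherin, the ligand of the integrin that Itgb7 forms with Itgae, is encoded by Cdh1, which was 2.12-fold higher (3530 against 1636). Among 10 measured partners, ligands and activators, 5 passed, 1 was at least 2-fold higher and none was at least 2-fold lower. Fn1, the fibronectin gene, had a log2 difference of 0.43, and the activator genes Tln1 and Fermt2 -0.42 and -0.32.

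Kit was lower by both of its probe sets, which gave nearly the same fold. Probe set 1452514_a_at read 300.1 against 746 in the wild type, 2.53-fold lower. Probe set 1415900_a_at read 109 against 262, 2.45-fold lower. The SD between the log2 differences was 0.03, small beside the median of 0.22 over genes with several probe sets. The ligand gene Kitl read 140.1 against 219 (-0.67) by the 1 of its 4 probe sets that passed the filter, and the other 3 were dim and did not go 1 way. Of 20 measured genes for the ligand, related receptors and signalling proteins, 11 passed, 2 were at least 2-fold lower (Kit and Mitf), none was at least 2-fold higher, and the median was -0.08. Mitf, which encodes a transcription factor downstream of Kit in melanocytes and mast cells, read 87.0 against 199 (2.32-fold lower) by its brighter probe set. Mitf was under 2-fold with the floor at the 40th percentile (-0.99). Its other probe set was at the floor on both arrays, and as the median over its probe sets Mitf was at -0.61 and below the filter. The adaptor genes Grb2, Grb7 and Shc1 had log2 differences of -0.32, -0.08 and 0.01, and Gab2 was 1.88-fold higher (181 against 94.5). Among related receptor genes, Pdgfra and Pdgfrb were at the floor on both arrays, Flt3 did not pass the filter, and the passing probe sets of Csf1r disagreed, at 183 against 146 (0.30) for the brightest and -0.96 for the other.

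Surface proteins used to mark ES cells did not go 1 way. All 17 such genes passed the filter, 2 of them, Jam2 and Kit, at least 2-fold lower and 3 at least 2-fold higher, with a median of -0.02. Prom1, a membrane protrusion protein gene, was 4.25-fold higher (727 against 168), Cd24a, which encodes a lipid-anchored sialoglycoprotein, 3.07-fold (1977 against 634, with all 3 probe sets higher) and Cdh1 2.12-fold. The tetraspanin gene Cd9 read 2060 against 3520 (-0.80), the epithelial adhesion gene Epcam 4379 against 2591 (0.73) and the alkaline phosphatase gene Alpl 457 against 479 (-0.09). Of 8 classical cadherin and catenin genes, 6 passed and 2 were at least 2-fold higher, Cdh1 and the p120 catenin gene Ctnnd1 (2.12-fold, 408 against 190), with a median of 0.65. Of these 6, 5 were above 0, from 0.04 for Ctnna1 to 1.09 for Cdh1, and Ctnnb1 was at -0.10.

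**Figure D3:**
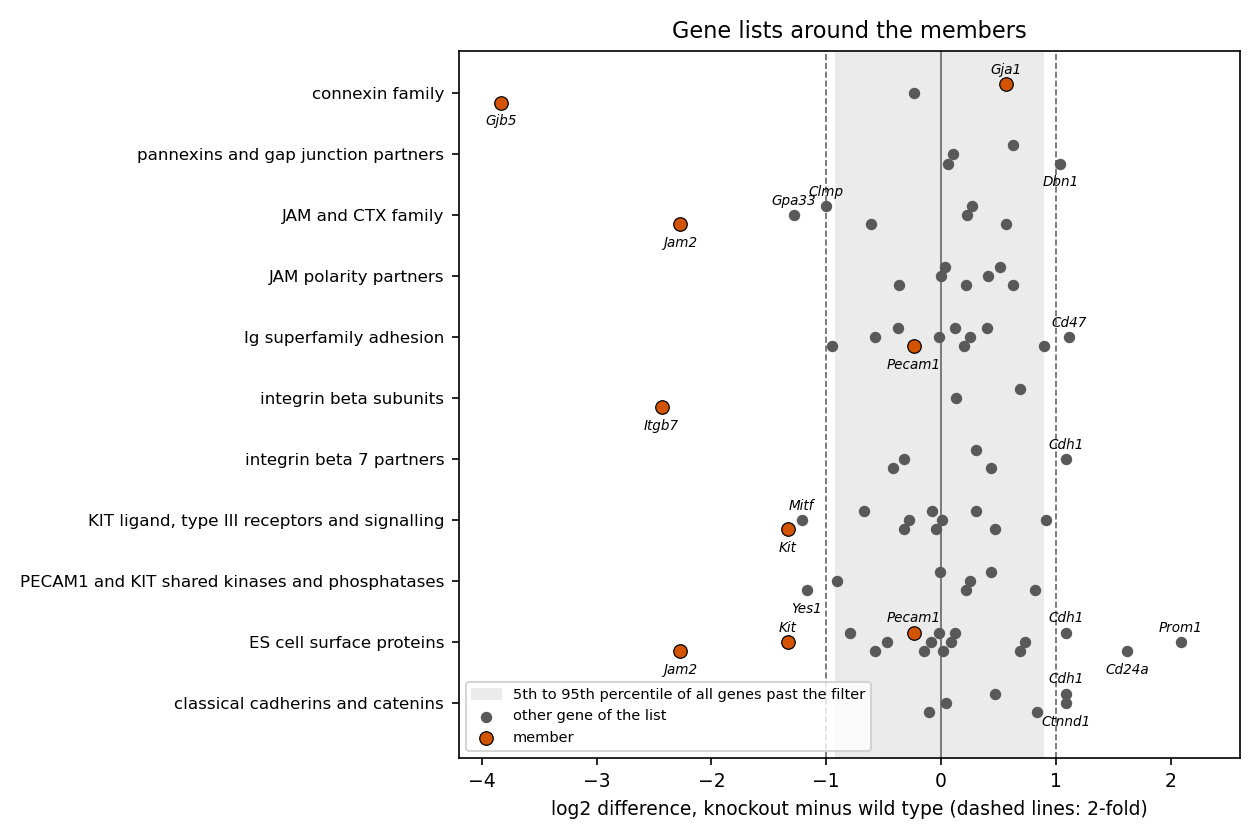
Log2 difference (knockout minus wild type, x axis) of each gene past the filter in 11 gene lists around the members (y axis), with members in orange, other genes in grey, and the range from the 5th to the 95th percentile of all genes past the filter (-0.91 to 0.89) shaded. In the connexin, JAM and integrin beta lists the member that is lower stands to the left of the rest of its own list. As the members were picked on this contrast, that place is a description only. The connexin and integrin beta lists each hold 3 genes past the filter.

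The genes next to each member on its chromosome were measured in the same arrays. The 2 nearest protein-coding genes with a probe set on each side gave 24 neighbours, of which 14 passed the filter, and none of these was 2-fold lower or 2-fold higher. Among the 10 that did not pass, Msl3l2 beside Gja1 read 116 against 47.6. The log2 differences of the 14 that passed ran from -0.84 to 0.73, with a median of -0.25. Around Jam2, the mitochondrial ribosomal protein gene Mrpl39 had a log2 difference of -0.57, the ATP synthase subunit gene Atp5j 0.05 and the transcription factor gene Gabpa -0.35. Around Itgb7, all 4 neighbours were below 0, with Csad at -0.69, Zfp740 at -0.51, the retinoic acid receptor gene Rarg at -0.33 and Mfsd5 at -0.84. Kit lies between the receptor genes Pdgfra, at the floor on both arrays, and Kdr, which read 153 against 152. The connexin gene Gja4 lies near Gjb5 and was dim on both arrays (58.7 and 73.4). Farther out on either side of Gjb5, Zmym1 had a log2 difference of -0.17 and the Polycomb gene Phc2 0.33.

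**Figure D4:**
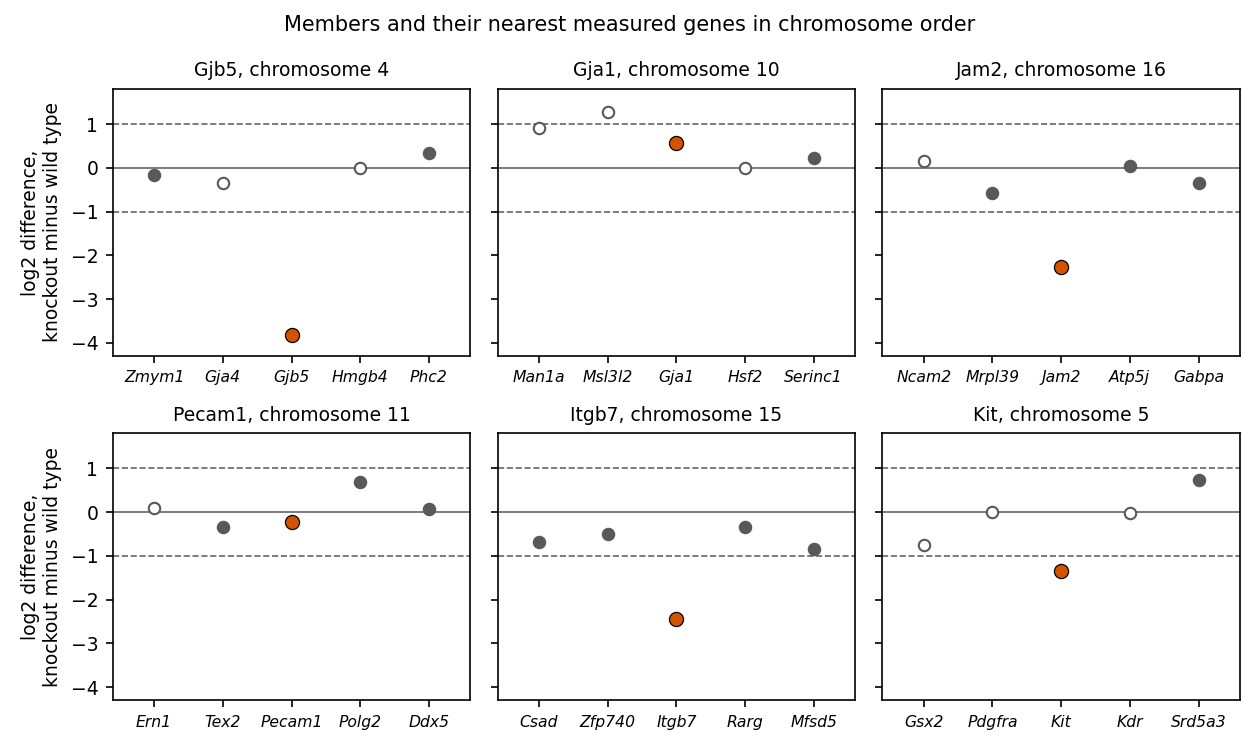
Log2 difference (knockout minus wild type, y axis) of each member (orange) and of its 2 nearest measured protein-coding genes on each side, in chromosome order (x axis, not to scale). Open points did not pass the brightness filter, and a point for a gene at the floor on both arrays is drawn at 0. The 14 filled neighbours lie between -0.84 and 0.73.

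Markers of other cell types that use these genes were mostly dim. Of 9 endothelial markers 1 passed the filter, and their summed intensity was 620 in the knockout against 742, with Tie1 and Vwf at the floor on both arrays, while a probe set of Flt1 that is not its brightest read 179.6 against 64.9 (1.44). Of 6 measured blood cell markers 1 passed (summed 655 and 547, Ptprc at the floor on both), and of 5 mast cell markers none did (summed 277 and 293, Mcpt4 at the floor on both). Of 8 trophoblast markers 3 passed (summed 1041 and 1281, Gata3 at the floor on both), and of 8 feeder fibroblast markers 2 passed (summed 756 and 743, Pdgfrb and Postn at the floor on both). Of 7 primitive endoderm markers 1 passed (summed 681 and 757, Sox7 at the floor on both), and all 4 measured germ cell markers passed (summed 1854 and 1822). The 8 ES cell markers all passed, at a summed 52812 in the knockout against 68419, so signal for the labelled cell type was present on both arrays. Each sum adds readings as deposited, also those below the filter, and serves only to set the arrays side by side. The passing endothelial, blood cell and primitive endoderm markers were Tek (170 against 129), Coro1a (376 against 197) and Dab2 (216 against 117). Each was higher in the knockout, by less than 2-fold. Of the passing trophoblast markers, Ascl2 (123 against 221) and Tfap2c (381 against 567) were lower and Hand1 (213 against 189) was higher. Among the ES cell markers, Nanog (2195 against 5423) and Fgf4 (1269 against 3178) were at least 2-fold lower, and Pou5f1 read 6834 against 8636. Fgf4 was so only by its brightest probe set, with -0.997 and -0.60 for its other passing ones. The median over all Fgf4 probe sets was -0.80, in which a probe set at the floor on both arrays counts as 0. The part of the ES cell and trophoblast marker levels in the lower Gjb5, Jam2, Itgb7 and Kit signals was not tested.

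For each member, the gene past the filter with the closest pair of readings was found. Distance was Euclidean between centred log2 values over the 2 arrays, before the floor was applied, and 2 arrays are too few for a pattern. Since different probe sets cannot be compared in level, a short distance describes readings and not transcript amounts. The closest genes were the leucine-rich repeat gene Pramel6 for Gjb5 (39.3 against 452, distance 0.62), the bZIP repressor gene Jdp2 for Itgb7 (59.1 against 299, distance 0.06) and the myosin light chain gene Mylpf for Jam2 (429 against 2012, distance 0.12). For Kit it was Pdzd11 (307 against 745, distance 0.03), for Pecam1 the GTPase gene Rab12 (307 against 359, distance 0.02) and for Gja1 the pluripotency gene Utf1 (5302 against 3845, distance 0.09).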

How the data were processed

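RNeasy columns gave total RNA from both cultures, and biotin-labelled RNA was made from it with an in vitro transcription kit and hybridised to single-channel arrays, per the labels' protocols. The authors deposited linear intensities, 1 per probe set, for 22690 probe sets. The software that made them is not given in the sources used here. With 2% of the probe sets trimmed at each end, the mean intensity was 500.2 on both arrays, so each had been scaled to a common level. Genes were named from the 2016 platform annotation, and symbols, chromosome order and promoters came from RefSeq tables of GRCm38.p6, in which 12367 of 12393 genes were found. Intensities were turned into log2 values and centred on the median of all probe sets of an array other than controls. A floor was set at the 25th percentile, and each gene was taken at its brightest probe set by mean log2 value. Genes were counted at 2-fold. No test was run, since 1 array per genotype leaves no replicate error, and the number of arrays limits the precision. The steps were checked on simulated arrays with known changes, all well past 2-fold and in genes with a single bright probe set. Changes near 2-fold, dim genes and the choice between probe sets were not covered by that check. Named genes were Id1 and the members with every probe set, list genes past 2-fold (up to 4 a direction), family genes past the filter, the 2 nearest measured genes on each side and the closest gene in level. Genes named beyond these, and those whose role is needed to follow a list, were chosen after their values were seen. The members and lists were chosen with earlier results of these data known. Alternatives covered scaling, floor, filter, choice of probe sets and the sex chromosomes. Python 3.11.15, pandas 2.3.3 and statsmodels 0.14.6 were used.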

Additional observations from a re-analysis of the deposited data

How the results depend on the processing

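Under 8 alternatives of scaling, floor and choice of probe sets, each of the 6 genes kept its sign and its side of 2-fold wherever it had a value. Pecam1 and Kit had 7 values, since all their probe sets carry a suffix and drop out when probe sets ending in _x_at, _s_at or _a_at are removed. Jam2 ran from -2.28 to -2.25, Kit from -1.37 to -1.31 and Pecam1 from -0.27 to -0.21. Gjb5 was -4.35 with no floor and with the floor at the 10th percentile, and -2.76 with the floor at the 40th percentile, where Itgb7 was -1.60. Gja1 was 0.90 as the median over its probe sets and 0.91 without suffixed probe sets. The counts of 289 genes at least 2-fold higher and 289 lower became 435 and 443 with no filter on dim genes. They were 118 and 131 with the brighter value at or above the 75th percentile, where fewer genes are compared (3907 against 7369). With X-linked and Y-linked genes left out, 7128 genes were compared, of which 280 were at least 2-fold higher and 238 lower. The lower count fell by more than the higher one, so the sex-linked genes past 2-fold were mostly lower in the knockout. Whether the 2 cultures differ in their sex chromosomes was not tested. Of 13 other named genes past 2-fold, 6 (Clmp, Mitf, Cd47, Dbn1, Fgf4 and Yes1) were short of it under at least 1 alternative, and Cd47 turned to -0.086 without suffixed probe sets, where a dimmer probe set represents it. Of 22 counts of list genes past 2-fold, all small, 9 differed by over 1.5 times under at least 1 of 11 alternatives. No paired analysis was possible because each genotype has 1 array. Probe sets near the floor, as for Gjb5 and Itgb7 in the knockout, limit the size of their folds.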
